A study of Mus musculus with 18 samples.

Results

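The response of wild-type natural killer (NK) cells to IL-15 was measured as the difference between 3 libraries of primed cells and 3 libraries of fresh cells, which are 6 of the 18 RNA libraries of the series. All genes were examined, and 14864 of 55487 gene identifiers had enough counts to be tested. Primed cells had 72 hours of culture with IL-15 at 100 ng/ml, and fresh cells were taken without that culture, so time in culture and IL-15 changed together and cannot be told apart. Both groups were YFP+ NK cells sorted from the spleen of Rosa YFP/YFP Ncr1 CRE-ERT2 mice that had been fed tamoxifen for 48 hours, with the diet withdrawn 5 days earlier, so the fresh cells had also seen tamoxifen and an active Cre. The driver is an inducible Cre under the Ncr1 gene, and the YFP sort restricts the samples to cells in which that Cre had acted. Acly fl/fl mice with the same 2 alleles gave the knock-out cells, and a further group of primed cells of each genotype was washed and placed on plate-bound NKG2D at 20 ug/ml for 6 hours. Nothing in the labels ties a replicate to its own mouse, so the p-values measure the spread of 3 libraries a group, which may in part be technical.

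IL-15 is a cytokine that NK cells need for survival and expansion. It is presented by IL-15 receptor alpha on neighbouring cells and signals through the receptor chains encoded by Il2rb and Il2rg, the kinases JAK1 and JAK3 and the transcription factor STAT5, whose targets include the feedback inhibitor gene Cish. Resting splenic NK cells of mice hold granzyme and perforin transcripts with little granzyme B and perforin protein, and cytokine priming is known for making them large, dividing and ready to kill. Growth of this kind draws on glycolysis, lipid synthesis and ribosome production, which MYC, mTORC1 and the SREBP factors control.

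The primed libraries held 20456261 to 34111238 counts and 17877 to 18783 genes with a count, and the fresh libraries held 19263118 to 24480276 counts and 18399 to 19553 genes. Libraries of 1 group resembled each other more than libraries of the other group, with correlations of log2 CPM (CPM are counts scaled to a fixed library total) of 0.967 to 0.98 between primed libraries, 0.976 to 0.981 between fresh libraries and 0.873 to 0.892 between the groups; these are across genes, which are not independent. The common biological coefficient of variation was 0.277 in primed cells and 0.182 in fresh cells. Replicate 1 had the Xist pattern of a female and replicates 2 and 3 the Y-linked pattern of a male, in both groups alike, so each group held RNA of at least 2 mice.

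All 15 defining NK markers were detected in all 6 libraries and held 3.14% to 3.97% of the counts of primed libraries and 2.86% to 2.99% of those of fresh libraries. Of these markers 10 were called lower in primed cells and 2, Gzmb and Xcl1, higher (median -0.71), and Gzmb alone averaged 15634 CPM in primed cells and 1247 CPM in fresh cells. Markers of other cells were a small fraction and moved with the groups. The 4 haemoglobin genes, Lyz2 of myeloid cells, C1qb of macrophages and Igkc of B cells had 0 counts in the 3 primed libraries, and in fresh libraries Hbb-bs had 46.0, 68.4 and 36.9 CPM, Lyz2 2.94, 5.21 and 6.13 CPM and Igkc 7.71, 10.1 and 4.35 CPM. Relative to a floor of 3 counts over the group, Hbb-bs was at least 1210-fold lower, Lyz2 at least 110-fold lower and Igkc at least 180-fold lower in primed cells. Of the list of erythroid and platelet markers 10 of 11 tested genes were lower. Of myeloid markers 6 of 9 were lower and 2 higher, and of B-cell markers 5 of 6 were lower. Cd68, a myeloid marker that rose, had 51.9, 65.7 and 52.4 CPM in primed libraries and 11.1, 14.6 and 12.4 CPM in fresh libraries. Ighm, a B-cell marker, had 92.6, 100.3 and 89.1 CPM in primed libraries and 234.5, 233.1 and 229.3 CPM in fresh libraries. The summed level of the erythroid list was higher in primed cells through Car2 alone. Car2 had 2412, 2149 and 1934 CPM in primed libraries and 850.0, 659.5 and 653 CPM in fresh libraries. The part of these cells in the results was not tested. T-cell markers summed to 487 to 622 CPM in primed cells and 368 to 443 CPM in fresh cells, mostly the receptor constant genes Trbc1 and Trbc2, with Cd4 and Cd8a at 0 in every primed library and at 0.503 CPM or less in fresh ones.

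Within the primed group, library 3 differed from libraries 1 and 2 at a set of genes: of 6226 well-expressed genes (mean log2 CPM of at least 4), 323 were over 2-fold higher in library 3 than in the mean of the other 2, against 4 for library 1 and 3 for library 2. H2-D1, a class I histocompatibility gene, had 452, 444 and 4338 CPM in primed libraries and 7449.8, 7431 and 8497 CPM in fresh libraries, and the cytoskeletal gene Pfn1 had 236, 245 and 3564 CPM in primed libraries and 2682, 2711 and 2729.8 CPM in fresh libraries. The median level of these 323 genes was 4.08, 3.98 and 5.76 log2 CPM in primed libraries 1 to 3 and 5.65, 5.68 and 5.65 log2 CPM in fresh libraries, so library 3 read like fresh cells at these genes and libraries 1 and 2 did not. Primed knock-out libraries had medians of 5.47, 5.31 and 4.91 log2 CPM at these genes, and fresh knock-out libraries 5.32, 4.94 and 5.03. NKG2D-stimulated libraries had 4.76, 4.52 and 4.09 log2 CPM in wild type and 4.56, 5.43 and 5.55 in knock-out. The cause was not tested. Of the 323 genes, 127 were called lower and 7 higher in primed cells, where 27.2% of all tested genes were lower and 26.5% higher. The 323 genes were chosen by primed values that also enter these calls, so the counts are a description. Library 3 lay below every fresh library at 111 of the 127. Among fresh libraries, library 1 was over 2-fold higher than the mean of the other 2 at 30 genes, among them the innate lymphoid cell markers Cxcr6 and Tmem176b. Some counts of called list members moved by over 1.5 times without 1 wild-type library, or with library 3 as the only primed one. There the new count, or the list median with library 3 alone, is given beside the first.

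Priming changed most of the transcriptome that could be tested. By edgeR's quasi-likelihood test with Benjamini-Hochberg adjustment at 0.05, 3945 of 14864 genes were higher in primed cells (26.5%) and 4042 were lower (27.2%), 53.7% in either direction. The changes were large: 2240 rises and 2269 falls were at least 2-fold, 576 and 399 at least 8-fold, and 318 and 194 at least 16-fold. TMM scaling centres this distribution: the median log2 fold change over all tested genes was -0.060, with quartiles of -0.80 and 0.71, and was -0.202 with no scaling factor beyond the library total, where 3417 genes were higher and 4762 lower. Every primed library lay above every fresh library at 31.3% of tested genes and below at 32.8%. Of the rises 3169 (80.3%) and of the falls 2883 (71.3%) were also called in each of the 6 fits that left out 1 of the wild-type libraries. With primed library 3 as the only primed library, 2859 genes were higher and 2398 lower. In bulk RNA, fewer cells of a kind and less RNA per cell cannot be told apart, and CPM are shares, so a gene can read lower where others take up more of the RNA.

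**Figure D1:**
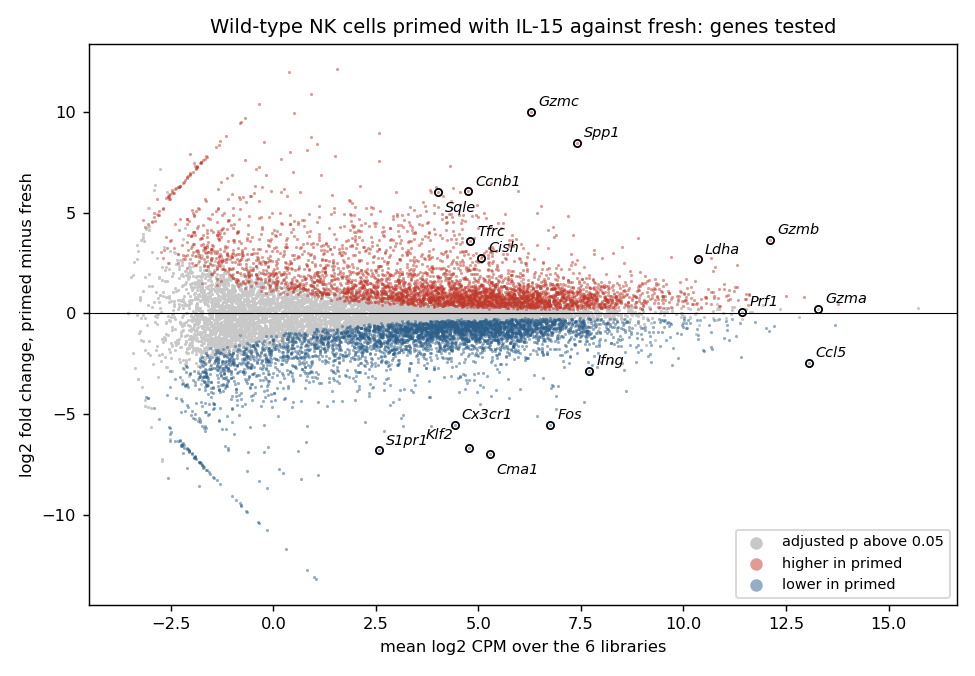
Each point is 1 of 14864 tested genes, with the mean log2 CPM over the 3 primed and 3 fresh libraries on the x axis and the log2 fold change, primed minus fresh, on the y axis; red and blue mark genes called higher and lower at adjusted p 0.05. Gzmc and Spp1 lie far above zero, Cma1, Klf2 and S1pr1 far below, and Gzma and Prf1 lie near zero; the straight lines of points at the left are genes with no counts in 1 group, whose fitted values are not fold changes.

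The largest rises among well-expressed genes were secreted and membrane proteins and mitotic genes. Gzmc, which encodes granzyme C, had 3234, 2917 and 1969 CPM in primed libraries and 4.57, 1.55 and 1.47 CPM in fresh libraries (log2 fold change 10.02, SE 0.44, adjusted p = 8.80e-12). Spp1, which encodes the secreted phosphoprotein osteopontin, had 3240.4, 3476 and 2896 CPM in primed libraries and 9.33, 9.67 and 7.96 CPM in fresh libraries (log2 fold change 8.48, SE 0.33, adjusted p = 3.36e-12). By TPM over exon length Gzmc ranked 15 and Spp1 25 of 11707 protein-coding genes in primed cells, against 6289 and 4690 in fresh cells. Ifitm2, an interferon-induced membrane protein gene, had 318, 234 and 229 CPM in primed libraries and 2.28, 0.751 and 1.73 CPM in fresh libraries (log2 fold change 7.33, SE 0.36, adjusted p = 2.60e-11). Plac8 and Adam8, which encodes a membrane protease, rose by 6.08 and 6.24, and both were higher in fresh library 1 than in fresh libraries 2 and 3. Among the other rises of the 15 largest were Ifi27l2a (6.46), Ccnb1 (6.07), Ube2c (6.04), Sqle (6.03), Plk1 (5.57), Birc5 (5.40), Pclaf (5.35), Mt1 (5.29) and Nusap1 (5.01).

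The largest falls were a protease gene, regulators of quiescence and trafficking, and early-response genes. Cma1, which encodes the serine protease chymase, had 4.25, 3.27 and 2.86 CPM in primed libraries and 468, 405 and 411 CPM in fresh libraries (log2 fold change -6.96, SE 0.26, adjusted p = 2.15e-12). Klf2, a transcription factor that keeps lymphocytes quiescent and drives their egress genes, had 2.97, 2.67 and 2.43 CPM in primed libraries and 252, 266 and 301 CPM in fresh libraries (log2 fold change -6.67, SE 0.21, adjusted p = 4.22e-13). Cx3cr1, the fractalkine receptor of mature NK cells, had 3.54, 2.51 and 3.38 CPM in primed libraries and 166, 121 and 148 CPM in fresh libraries (log2 fold change -5.51, SE 0.43, adjusted p = 1.12e-08). In each of these the primed libraries were close to each other and the groups lay far apart. Among the other falls of the 15 largest were Fos (-5.52), Junb (-5.09), Nr4a1 (-4.73), Dusp1 (-4.50), Ppp1r15a (-4.41), Frat1 (-4.18), Tspan32 (-4.12), Tnfaip3 (-4.12), H1f2 (-3.92), Dhrs3 (-3.92) and As3mt (-3.79).

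The cytotoxic granule genes split by member. Granzyme B, the main caspase-cleaving granzyme, rose 12.5-fold, whereas granzyme A and perforin, which forms the pore through which granzymes enter a target, did not change by an amount that passed the test. Gzmb had 17635, 16376 and 12892 CPM in primed libraries and 1254, 1209.9 and 1275 CPM in fresh libraries (log2 fold change 3.65, SE 0.24, adjusted p = 1.02e-09). Gzma had 11656, 11470.5 and 9196 CPM in primed libraries and 8935, 8906 and 9732 CPM in fresh libraries (log2 fold change 0.23, SE 0.15, adjusted p = 0.208), and library 3 of the primed group lay within the range of the fresh libraries. Prf1 had 2953, 3069.6 and 2541 CPM in primed libraries and 2425, 2708 and 2975 CPM in fresh libraries (log2 fold change 0.079, SE 0.19, adjusted p = 0.752), and the groups overlapped. Per length, granzyme B reached the level of granzyme A: as TPM over exon length, Gzmb averaged 20973 ± 2559 in primed cells and 1980.5 ± 71.1 in fresh cells and Gzma 20641 ± 1744 in primed cells and 20826 ± 396 in fresh cells (SD, n = 3 each). By that measure Gzmb ranked 3 among nuclear protein-coding genes in primed cells and 51 in fresh cells, and Gzma ranked 4 and 3.

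Of 24 tested genes of the granzyme, perforin and exocytosis list, 11 were higher and 7 lower (median log2 fold change 0.23, against -0.060 over all genes), and the falls numbered 4 without fresh replicate 3. The granzyme genes next to Gzmb on chromosome 14 were at or near 0 in fresh cells and detected in all primed libraries. Gzmd had 60.9, 33.7 and 22.8 CPM in primed libraries, against 0, 0.0469 and 0 CPM in fresh libraries. Gzme had 33.4, 19.4 and 11.9 CPM in primed libraries and 0 counts in fresh libraries, at least 445-fold higher against a floor of 3 counts over the group, and Gzmf was at least 50.2-fold higher. Gzmc to Gzmg are neighbours alike in sequence that may share reads, so the split between them is uncertain. The granzyme inhibitors Serpinb9, Serpinb9b and Serpinb6b rose by 0.89, 1.33 and 1.49, and Srgn, the proteoglycan that holds granzymes in the granule, rose by 0.68. Among the falls were Gzmm, granzyme M, at 1.52 ± 0.470 CPM in primed cells and 17.0 ± 4.27 CPM in fresh cells (log2 fold change -3.51, SE 0.28, adjusted p = 1.23e-08), the death ligand gene Fasl by 1.54, and Stx11 and Unc13d, needed for granule fusion, by 1.73 and 0.59. Tnfsf10, the death ligand TRAIL, rose by 1.62. The whole list held 3.68% ± 0.474 of the counts of primed libraries and 2.32% ± 0.0579 of those of fresh libraries (SD, n = 3).

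The cytokine and chemokine genes that NK cells use against infection split by member: of 19 tested, 5 were higher (26.3%) and 6 lower (31.6%), close to the shares of all genes (26.5% and 27.2%), with a median of -0.0027. Ifng, interferon gamma, had 87.1, 83.3 and 63.1 CPM in primed libraries and 493, 542 and 645 CPM in fresh libraries (log2 fold change -2.85, SE 0.15, adjusted p = 6.46e-11). Ccl5, a chemokine stored by resting NK cells and the gene with the highest level per length in fresh cells, had 3879.8, 3854 and 3213 CPM in primed libraries and 19055, 20157 and 20188 CPM in fresh libraries (log2 fold change -2.44, SE 0.15, adjusted p = 6.60e-10). For both, every primed library was below every fresh library, several-fold. Ccl3 and Ccl4, chemokines of activated NK cells, fell by 1.79 and 1.12.

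Other members rose. Xcl1, which attracts cross-presenting dendritic cells, had 999, 1174 and 864 CPM in primed libraries and 295, 262 and 295 CPM in fresh libraries (log2 fold change 1.83, SE 0.18, adjusted p = 1.76e-07). Ccl1 had 77.3, 113 and 79.9 CPM in primed libraries, against 0.0387, 0 and 0 CPM in fresh libraries, which is 1 count in all. Ccl9 rose by 2.62, Cxcl10 by 2.43 and Csf2 by 1.36. Tnf was low in both groups, at 3.62 ± 1.63 CPM in primed cells and 2.50 ± 1.26 CPM in fresh cells (log2 fold change 0.54, SE 0.43, adjusted p = 0.313). The list held 0.647% ± 0.0716 of the counts of primed libraries and 2.61% ± 0.0999 of those of fresh libraries.

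**Figure D2:**
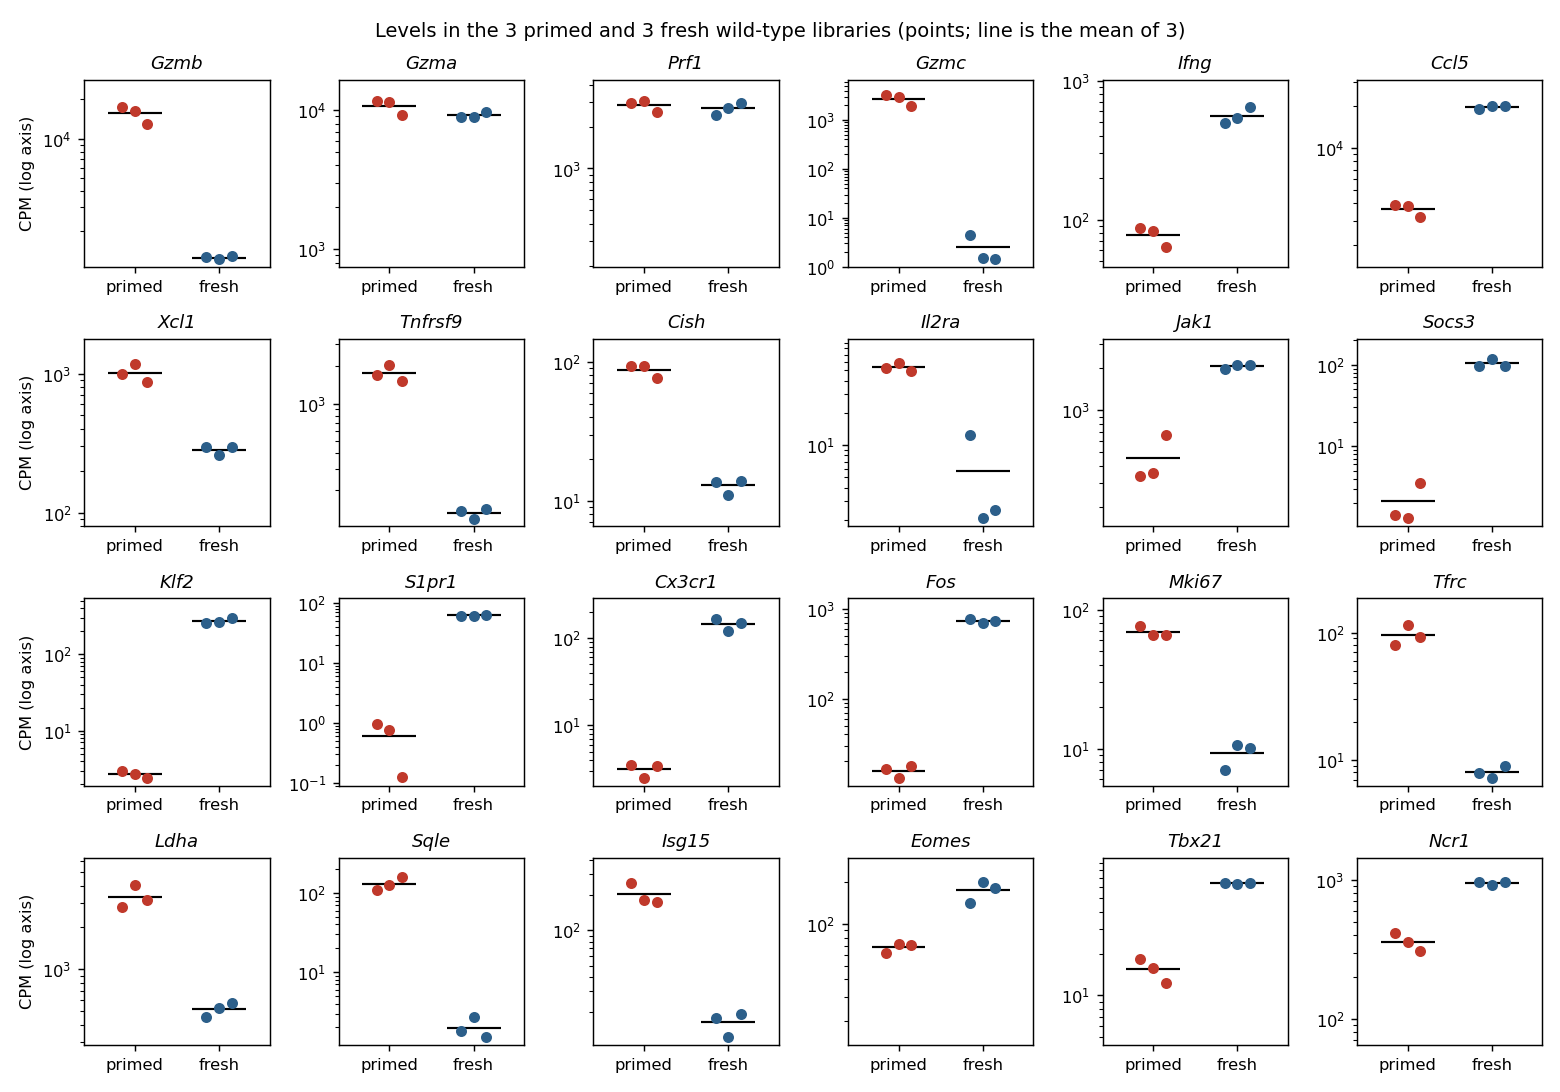
Levels of 24 genes in CPM on log axes, with 1 point per library (3 primed in red on the left of each panel, 3 fresh in blue on the right) and the group mean as a line. The groups overlap for Prf1 and Gzma and are apart for the other 22 genes; Jak1 and Socs3 are higher in primed library 3 than in the other primed libraries, and Il2ra is higher in fresh library 1 than in the other fresh libraries.

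The genes of the IL-15 receptor itself did not pass the test, while Jak1, Stat5a, Stat5b and Stat3, which act downstream of it, were lower. Il2rb, the signalling chain, had 3385, 3446 and 3162 CPM in primed libraries and 3033, 3107 and 3446 CPM in fresh libraries (log2 fold change 0.060, SE 0.15, adjusted p = 0.756), and the values of the groups overlapped. Il2rg and Il15ra had log2 fold changes of -0.21 and 0.0098 (adjusted p = 0.121 and 0.978). Il2ra, the high-affinity chain for IL-2, had 52.9, 59.0 and 49.0 CPM in primed libraries and 12.5, 2.06 and 2.46 CPM in fresh libraries (log2 fold change 3.21, SE 0.52, adjusted p = 5.06e-05); fresh library 1 held several times the level of the other fresh libraries and was still below all primed ones. Jak1 had 337, 352 and 661 CPM in primed libraries and 1993, 2116 and 2097 CPM in fresh libraries (log2 fold change -2.20, SE 0.27, adjusted p = 2.77e-06), and primed library 3 was higher than the other 2. Jak3 had 3.78, 3.82 and 64.6 CPM in primed libraries and 49.7, 52.1 and 64.9 CPM in fresh libraries: libraries 1 and 2 were low, library 3 lay within the fresh range, and the difference did not pass (adjusted p = 0.224). Stat5a, Stat5b and Stat3 fell by 0.88, 0.70 and 1.04. In all, 2 of 13 genes were higher and 6 lower (median -0.32).

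Known STAT5 targets did not move as a block: 4 of 18 were higher (22.2%) and 7 lower (38.9%), with a median of -0.10. Of all genes 26.5% were higher and 27.2% lower. Cish, which encodes a feedback inhibitor of STAT5 signalling, had 93.6, 93.7 and 76.0 CPM in primed libraries and 13.7, 11.1 and 14.0 CPM in fresh libraries (log2 fold change 2.76, SE 0.38, adjusted p = 1.05e-05). Myc and Bcl2, a growth regulator and a survival factor, rose by 1.43 and 0.52. The feedback gene Socs3 had 1.42, 1.31 and 3.59 CPM in primed libraries and 96.7, 118 and 97.9 CPM in fresh libraries (log2 fold change -5.57, SE 0.37, adjusted p = 1.27e-09), and its relatives Socs1 and Socs2 did not pass the test (0.62 and 0.41, adjusted p = 0.145 and 0.384). The kinase genes Pim1 and Pim3, the survival genes Mcl1 and Bcl2l1 and the cyclin gene Ccnd3 fell by 0.91, 2.02, 0.59, 0.55 and 1.23. The promoter of Cish is shown because it carries 2 matches to the STAT consensus TTCNNNGAA, in capitals, just after the start site. The window runs 250 bases before to 50 after the RefSeq start (GRCm38.p6, chr9:107296409-107296708, plus strand):

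Cish: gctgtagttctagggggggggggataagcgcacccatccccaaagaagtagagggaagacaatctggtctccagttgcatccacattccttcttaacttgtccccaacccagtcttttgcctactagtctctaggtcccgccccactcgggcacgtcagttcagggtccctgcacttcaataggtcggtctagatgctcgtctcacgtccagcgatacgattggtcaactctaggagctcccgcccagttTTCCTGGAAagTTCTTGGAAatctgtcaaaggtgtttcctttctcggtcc

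The 19 windows of the list cover 14 of its 18 genes. A match was found in 3 of these windows (15.8%), those of Cish, Socs3 and Lta, and in 8.3% of all 32851 promoter windows. Of the 3 genes Cish rose, Socs3 fell and Lta did not pass the test.

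Activating receptor genes were mostly lower: 15 of 27 fell and 5 rose (median -0.58). Ncr1, which encodes NKp46, had 414, 355 and 306 CPM in primed libraries and 973, 915 and 959.7 CPM in fresh libraries (log2 fold change -1.41, SE 0.15, adjusted p = 3.49e-07). Klrb1c, which encodes NK1.1, and Klrk1, which encodes NKG2D, fell by 1.09 and 0.56. For all 3, every primed library was below every fresh one. The adaptors that carry their signals fell too: Hcst (DAP10) by 1.06, Tyrobp (DAP12) by 1.03, Cd247 (the CD3 zeta chain) by 1.39 and Fcer1g by 0.58. Cd2 and Slamf6, adhesion and SLAM-family receptors, fell by 2.44 and 3.21. The rises were Fcgr3, the Fc receptor CD16 of antibody-dependent killing, at 141 ± 6.00 CPM in primed cells and 58.1 ± 2.46 CPM in fresh cells (log2 fold change 1.28, SE 0.099, adjusted p = 1.00e-08), the adhesion receptor gene Crtam by 1.92, the signalling genes Sh2d1b1 and Sh2d1b2, by 0.84 and 3.31, and the adaptor gene Lcp2 by 0.51.

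Of 27 inhibitory receptor genes 8 were higher (29.6%) and 9 lower (33.3%), with a median of 0.23. These shares were close to those of all genes (26.5% and 27.2%). Among the Ly49 genes Klra5 had 214, 208 and 155 CPM in primed libraries and 14.2, 15.4 and 15.9 CPM in fresh libraries (log2 fold change 3.66, SE 0.19, adjusted p = 6.46e-11) and Klra7 rose by 0.30, while Klra9 fell by 1.19 and Klra3 by 0.78; Ly49 genes are alike in sequence and may share reads. Klrc1 and Klrc2, which encode NKG2A and NKG2C, fell by 1.204 and 1.58, and their partner Klrd1 (CD94) did not pass the test (0.14, adjusted p = 0.456). Klrg1, a marker of mature NK cells, fell by 1.51, and Fcgr2b, the inhibitory Fc receptor, by 5.36. Havcr2, the checkpoint receptor TIM-3, had 26.3, 29.0 and 27.8 CPM in primed libraries and 0.0387, 0.141 and 0.0524 CPM in fresh libraries (log2 fold change 8.42, SE 0.45, adjusted p = 8.45e-11), and Tigit rose by 1.25, Cd96 by 1.27, Lilrb4a by 3.07 and Ceacam1 by 4.98. Lag3 had 6.42, 2.62 and 79.2 CPM in primed libraries and 18.2, 8.63 and 10.1 CPM in fresh libraries and did not pass (adjusted p = 0.262).

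Of 17 tested genes of the TNF receptor family and costimulation, 8 were higher and 6 lower (median -0.10), and the falls numbered 2 without primed replicate 3. Tnfrsf9, the costimulatory receptor 4-1BB, had 1691, 2054 and 1519 CPM in primed libraries and 136, 119 and 141 CPM in fresh libraries (log2 fold change 3.73, SE 0.21, adjusted p = 1.26e-10). Ly6a, the activation antigen Sca-1, had 187, 96.6 and 87.4 CPM in primed libraries and 2.21, 0.939 and 2.15 CPM in fresh libraries (log2 fold change 6.12, SE 0.52, adjusted p = 3.10e-08). Both were far above fresh cells in all 3 primed libraries. Tnfsf8 rose by 3.08 and Icos by 1.72, and Cd27, a receptor of immature NK cells, fell by 0.62 and Cd7 by 1.92.

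Of 36 transcription factor genes of NK development and maturation, 22 were lower and 3 higher (median -0.99). Eomes and Tbx21 encode the T-box factors that define NK cells. Eomes had 62.0, 71.5 and 71.2 CPM in primed libraries and 142, 202 and 183 CPM in fresh libraries (log2 fold change -1.36, SE 0.12, adjusted p = 6.00e-08), and Tbx21 had 18.1, 15.8 and 12.3 CPM in primed libraries and 64.2, 63.7 and 64.2 CPM in fresh libraries (log2 fold change -2.06, SE 0.13, adjusted p = 5.37e-10). The groups did not overlap for either gene. Zeb2, which acts with T-bet in terminal maturation, fell by 3.24, Tcf7 by 1.75, Ets1 by 1.19, Irf8 by 1.65 and Bhlhe40 by 1.83. Gata3 had 49.4, 53.7 and 134 CPM in primed libraries and 298, 296 and 273 CPM in fresh libraries (log2 fold change -1.86, SE 0.34, adjusted p = 0.000203), with primed library 3 between the other primed libraries and the fresh ones. The 3 rises were Zbtb32, a zinc-finger factor that mouse NK cells need to expand in viral infection, at 40.4, 30.9 and 37.1 CPM in primed libraries and 0.0387, 0.141 and 0.314 CPM in fresh libraries, with Irf4 higher by 3.82 and Hic1 by 2.03. Id2 and Nfil3, factors that the NK lineage needs early, did not pass the test (0.30 and -0.24, adjusted p = 0.0609 and 0.144).

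Genes by which NK cells leave tissue and travel in blood were among the most lowered: 20 of 28 tested genes of egress, homing and integrins fell and 6 rose (median -1.51). S1pr1 and S1pr5 encode receptors for sphingosine 1-phosphate, the signal for exit into blood and lymph. S1pr1 had 0.944, 0.764 and 0.123 CPM in primed libraries and 61.9, 62.3 and 62.8 CPM in fresh libraries (log2 fold change -6.79, SE 0.48, adjusted p = 2.51e-09), and S1pr5 had 1.37, 1.04 and 2.24 CPM in primed libraries and 53.4, 52.7 and 49.9 CPM in fresh libraries (log2 fold change -5.02, SE 0.28, adjusted p = 1.20e-10). In neither gene did the groups overlap. Cd69, whose protein pulls S1PR1 from the cell surface, had 587, 488 and 440.2 CPM in primed libraries and 242, 239.6 and 262 CPM in fresh libraries (log2 fold change 1.03, SE 0.15, adjusted p = 1.85e-05). Integrin genes of circulating NK cells fell, among them Itga4 by 3.62, Itgam by 2.55, Itga2 by 2.50, Itgb7 by 2.38, Itgb2 by 1.74 and Itgal by 1.63, and so did Cxcr4 by 4.08, Cmklr1 by 3.43 and Cxcr3 by 1.63. Among the rises were Itgb3 by 2.55, Cxcr6 by 2.15, Itga1 by 1.44 and Ccr2 by 0.99, with Cd69. Cxcr6 and Itga1 also mark tissue-resident type 1 innate lymphoid cells and were high in fresh library 1; of 10 tested genes of that marker list 4 were higher (2 with primed library 3 alone) and 2 lower (1 without fresh replicate 1), and its sum was 383 to 475 CPM in primed cells and 403 to 641 CPM in fresh cells, which overlap. Whether cells of that kind had a part in the rise of Cxcr6 and Itga1 was not tested.

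The immediate-early genes, which cells switch on within minutes of a stimulus or of handling, were high in fresh cells: 28 of 36 were lower in primed cells and 7 higher (median -2.29). Fos had 16.4, 13.2 and 17.97 CPM in primed libraries and 759, 698 and 727 CPM in fresh libraries (log2 fold change -5.52, SE 0.27, adjusted p = 2.72e-11), and Nr4a1, an orphan nuclear receptor gene, had 20.1, 23.5 and 26.2 CPM in primed libraries and 425, 664 and 768 CPM in fresh libraries (log2 fold change -4.73, SE 0.31, adjusted p = 1.02e-09). Junb had 7.70, 5.73 and 40.1 CPM in primed libraries and 554, 680.3 and 624 CPM in fresh libraries (log2 fold change -5.09, SE 0.66, adjusted p = 4.57e-06), and primed library 3 was the highest of its group. Dusp1 fell by 4.50, Ier2 by 3.63, Atf3 by 3.75 and Jun by 2.94, and the NF-kappaB feedback genes Tnfaip3 and Nfkbia by 4.12 and 2.80. The members that rose were Fosl1 by 3.90, Ier3 by 3.85, Egr3 by 2.36, Egr2 by 2.17, Egr1 by 1.23 and Dusp6 by 0.82, with Cd69; the EGR genes follow MAP kinase signalling, and they moved against Fos. The list held 0.216% ± 0.0201 of the counts of primed libraries and 1.03% ± 0.0100 of those of fresh libraries.

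Genes of quiescence and cell-cycle inhibition were mostly lower, 15 of 20, with 2 higher (median -0.98). Beside Klf2, its relative Klf3 fell by 3.75, the antiproliferative genes Btg1 and Btg2 by 1.67 and 2.40, Tsc22d3, the glucocorticoid-induced leucine zipper, by 2.48, Cdkn1b, the inhibitor p27, by 1.36, and Foxo1 by 1.00. The 2 rises were Slfn2, a schlafen gene of T-cell quiescence, by 1.49, and Cdkn1a, the p53-induced inhibitor p21, by 1.39.

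The cell-cycle genes rose almost without exception: 31 of 32 genes of DNA replication and the G1/S transition (median 2.40) and 29 of 30 genes of mitosis (median 4.51) were higher, and none of either list was lower. The members that did not pass were Mcm6 (0.44, adjusted p = 0.501) and Racgap1 (0.22, adjusted p = 0.674). Mki67, the proliferation marker Ki-67, had 76.2, 66.1 and 65.3 CPM in primed libraries and 7.05, 10.6 and 10.1 CPM in fresh libraries (log2 fold change 2.91, SE 0.21, adjusted p = 3.39e-09). Ccnb1, which encodes the mitotic cyclin B1, had 198, 248 and 212 CPM in primed libraries and 3.21, 2.67 and 3.93 CPM in fresh libraries (log2 fold change 6.07, SE 0.27, adjusted p = 9.19e-12). All primed libraries exceeded all fresh libraries by a wide margin. Rrm2, the regulated subunit of ribonucleotide reductase, had 692, 785 and 839 CPM in primed libraries and 23.3, 27.1 and 32.1 CPM in fresh libraries (log2 fold change 4.81, SE 0.18, adjusted p = 2.26e-12). Cdc6, which loads the replicative helicase, rose by 5.01, and the helicase subunits Mcm5 by 2.53, Mcm3 by 2.47, Mcm7 by 2.41, Mcm2 by 1.76 and Mcm4 by 1.16 rose too. The mitotic list held 0.357% ± 0.0320 of the counts of primed libraries and 0.0267% ± 0.00371 of those of fresh libraries, and the replication list 0.474% ± 0.0385 of the counts of primed libraries and 0.112% ± 0.00742 of those of fresh libraries.

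The promoters of Cdc6 and Mcm5 are shown because both genes rose and both windows hold a site for E2F factors, which time S-phase genes. Capitals mark a match to TTTCCCGC or TTTGGCGC on either strand (RefSeq, GRCm38.p6; Cdc6 chr11:98907901-98908200, plus strand; Mcm5 chr8:75109259-75109558, plus strand):

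Cdc6: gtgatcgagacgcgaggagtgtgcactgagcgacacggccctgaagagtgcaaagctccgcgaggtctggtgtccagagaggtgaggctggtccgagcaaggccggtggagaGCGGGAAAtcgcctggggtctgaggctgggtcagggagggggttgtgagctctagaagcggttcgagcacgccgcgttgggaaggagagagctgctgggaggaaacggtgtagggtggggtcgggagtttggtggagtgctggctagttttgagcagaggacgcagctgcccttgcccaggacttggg

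Mcm5: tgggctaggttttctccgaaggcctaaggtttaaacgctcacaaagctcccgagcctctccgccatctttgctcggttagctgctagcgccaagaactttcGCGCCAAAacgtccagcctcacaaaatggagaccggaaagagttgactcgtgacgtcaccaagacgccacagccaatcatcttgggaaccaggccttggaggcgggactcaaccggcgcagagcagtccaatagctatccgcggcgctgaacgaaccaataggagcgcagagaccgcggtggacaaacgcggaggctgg

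A match was found in 10 of 31 windows of the replication list (32.3%), which cover 25 of its 32 genes, and in 1.56% of all promoter windows of the same length.

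Glycolysis rose strongly. Of 23 tested genes 19 were higher and 0 were lower (median 2.07), and the list held 2.15% ± 0.325 of the counts of primed libraries and 0.480% ± 0.0230 of those of fresh libraries. Hk2, the inducible hexokinase, had 39.1, 48.0 and 47.7 CPM in primed libraries and 1.12, 1.88 and 2.46 CPM in fresh libraries (log2 fold change 4.64, SE 0.28, adjusted p = 3.00e-10), while the constitutive Hk1 did not pass (0.079, adjusted p = 0.659). Ldha, which turns pyruvate into lactate, had 2813, 4055 and 3128 CPM in primed libraries and 456, 524 and 575 CPM in fresh libraries (log2 fold change 2.68, SE 0.18, adjusted p = 1.23e-09). Slc16a3, which exports lactate, had 95.8, 135 and 151 CPM in primed libraries and 3.33, 3.71 and 5.76 CPM in fresh libraries (log2 fold change 4.90, SE 0.29, adjusted p = 3.51e-10). Primed library 1 was the lowest of its group in Hk2, Ldha and Slc16a3, and still far above fresh cells. Between these steps Aldoc rose by 6.02, Pgk1 by 3.27, Gapdh by 3.00, Aldoa by 2.77, Tpi1 by 2.73, Eno1 by 2.41 and Pkm by 2.32, and the glucose transporter genes Slc2a1 and Slc2a3 by 1.24 and 0.93. Gapdh, Ldha and Eno1 have processed pseudogenes that may share their reads.

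Mitochondrial genes moved less. Of 22 genes of the TCA cycle 12 were higher and 1 lower (median 0.33), with Fh1 up by 1.07, the citrate synthase gene Cs by 0.78 and Ogdh down by 0.78; the rises numbered 7 with primed library 3 alone, and the falls 4 without it. Of 40 nuclear genes of the respiratory chain and ATP synthase 24 were higher and 0 lower (median 0.43), among them Cycs, cytochrome c, by 1.04 and Atp5g1 by 1.03. The rises numbered 15 with primed library 3 alone, and without it 5 genes were lower. Of 13 genes of the mitochondrial genome 7 were lower and 0 higher (median -0.30), mt-Nd2 by 0.85 and mt-Nd4 by 0.68, and the falls numbered 4 without primed replicate 3, fresh replicate 2 or fresh replicate 3; without primed replicate 3 or fresh replicate 3, 1 gene was higher.

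At the supply of acetyl-CoA, 8 of 20 genes were higher and 4 lower (median -0.13); without primed replicate 3, or with no scaling factor beyond the library total, 7 were lower. Acly, which cleaves citrate into cytosolic acetyl-CoA and is the gene deleted in the knock-out mice, had 227, 279.6 and 262 CPM in primed libraries and 232, 254 and 265 CPM in fresh libraries (log2 fold change 0.034, SE 0.19, adjusted p = 0.894), and the groups overlapped. Acss2, which makes acetyl-CoA from acetate, had 4.82, 5.02 and 15.3 CPM in primed libraries and 67.2, 77.9 and 80.0 CPM in fresh libraries (log2 fold change -3.14, SE 0.41, adjusted p = 5.05e-06). Library 3 of the primed group was the highest of the 3 and below all fresh libraries. Pdk1, the hypoxia-induced kinase that restrains pyruvate dehydrogenase, rose by 2.49, and Pdk2 fell by 3.24. Slc25a1, the carrier that exports citrate from mitochondria, rose by 1.03, as did the aspartate aminotransferase genes Got1 and Got2, by 0.94 and 1.02.

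Nutrient uptake changed by member. Tfrc, the transferrin receptor for iron, had 79.9, 115 and 91.6 CPM in primed libraries and 7.90, 7.23 and 8.90 CPM in fresh libraries (log2 fold change 3.58, SE 0.22, adjusted p = 3.55e-10), and Slc40a1, the iron exporter, fell to 0.0182 CPM in primed cells, against 7.92 CPM in fresh cells. Slc7a5, the light chain of the large neutral amino acid transporter, had 21.96, 26.3 and 24.8 CPM in primed libraries and 2.52, 1.97 and 2.72 CPM in fresh libraries (log2 fold change 3.34, SE 0.30, adjusted p = 5.28e-08), whereas its heavy chain gene Slc3a2 had 43.1, 39.98 and 112 CPM in primed libraries and 161, 167 and 172 CPM in fresh libraries (log2 fold change -1.35, SE 0.37, adjusted p = 0.00493). Of 15 amino acid transporter genes 7 were higher and 3 lower (median 0.65). Of 17 genes of the MYC network, iron and polyamines 7 were higher and 4 lower (median 0.12, which is -0.026 with no scaling factor beyond the library total); Odc1 and Srm, polyamine synthesis genes, rose by 1.18 and 3.33, and Mxd1, a MYC antagonist, fell by 2.25. Of 11 serine, glycine and one-carbon genes 9 were higher and 0 lower (median 1.95), with Shmt1 by 4.31, Mthfd2 by 3.12, Psat1 by 2.68 and Phgdh by 2.24. Of 23 nucleotide synthesis genes 20 were higher and 0 lower (median 1.38), with Tk1 by 4.76, Tyms by 3.36, Ctps by 2.21, Gart by 1.89 and Impdh2 by 1.81; Tk1 and Tyms are also S-phase genes. Without primed replicate 3, 2 genes of the nucleotide list were lower.

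The cholesterol pathway rose along its length. Of 28 tested genes of cholesterol synthesis and control 25 were higher and 2 lower (median 2.51), and the list held 0.329% ± 0.0305 of the counts of primed libraries and 0.121% ± 0.00702 of those of fresh libraries. Sqle, squalene epoxidase, had 109, 125 and 158 CPM in primed libraries and 1.78, 2.67 and 1.52 CPM in fresh libraries (log2 fold change 6.03, SE 0.24, adjusted p = 3.36e-12). All primed libraries were far above all fresh ones. Elsewhere in the pathway Hmgcs1 rose by 3.27, Fdps by 4.97, Idi1 by 4.76 and Cyp51 by 4.93, and Srebf2, the transcription factor that drives the pathway, by 1.87. The 2 falls were the sterol efflux pumps Abca1 and Abcg1, by 3.96 and 2.67, with Abcg1 at 99.4, 86.4 and 97.1 CPM in primed libraries and 656, 577 and 572 CPM in fresh libraries. The 26 promoter windows of the list cover 20 of its 29 genes. Of these windows only that of Hmgcs1, which rose, has a match to the sterol element TCACNCCAC (3.85%, against 1.24% of all windows). Capitals mark the match (RefSeq, GRCm38.p6, chr13:119690101-119690400, plus strand):

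Hmgcs1: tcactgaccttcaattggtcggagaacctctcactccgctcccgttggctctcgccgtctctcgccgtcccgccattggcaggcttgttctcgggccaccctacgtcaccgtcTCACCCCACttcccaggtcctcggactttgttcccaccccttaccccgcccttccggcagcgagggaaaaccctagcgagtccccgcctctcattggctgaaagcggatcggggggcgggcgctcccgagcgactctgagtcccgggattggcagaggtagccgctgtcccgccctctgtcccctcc

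Fatty acid synthesis rose in its desaturases most. Of 19 tested genes 13 were higher and 2 lower (median 0.70). Fads2, the delta-6 desaturase, had 21.3, 30 and 34.2 CPM in primed libraries and 0, 0.188 and 0 CPM in fresh libraries (log2 fold change 8.76, SE 0.58, adjusted p = 1.36e-09), and Scd1, the stearoyl-CoA desaturase, had 14.92, 23.6 and 22.8 CPM in primed libraries and 0.116, 0.141 and 0.262 CPM in fresh libraries (log2 fold change 6.88, SE 0.60, adjusted p = 3.78e-08). Both were near absent in fresh cells. Fasn, fatty acid synthase, had 101, 104 and 112 CPM in primed libraries and 56.3, 55.3 and 69.4 CPM in fresh libraries (log2 fold change 0.81, SE 0.20, adjusted p = 0.00271), and its neighbour in the pathway Acaca rose by 0.70. Srebf1 did not pass (0.14, adjusted p = 0.758). Of 18 genes of fatty acid oxidation 6 were higher and 3 lower (median 0.16); Cpt1a, the entry step into mitochondria, fell by 1.03. The falls numbered 1 without primed replicate 1, primed replicate 2 or fresh replicate 3, and 1 with primed library 3 alone. Eci1 was called lower (-1.27), and lost the call without primed replicate 1 (adjusted p = 0.0835), primed replicate 2 (adjusted p = 0.0883) or fresh replicate 3 (adjusted p = 0.053), and with primed library 3 alone (adjusted p = 0.591).

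**Figure D3:**
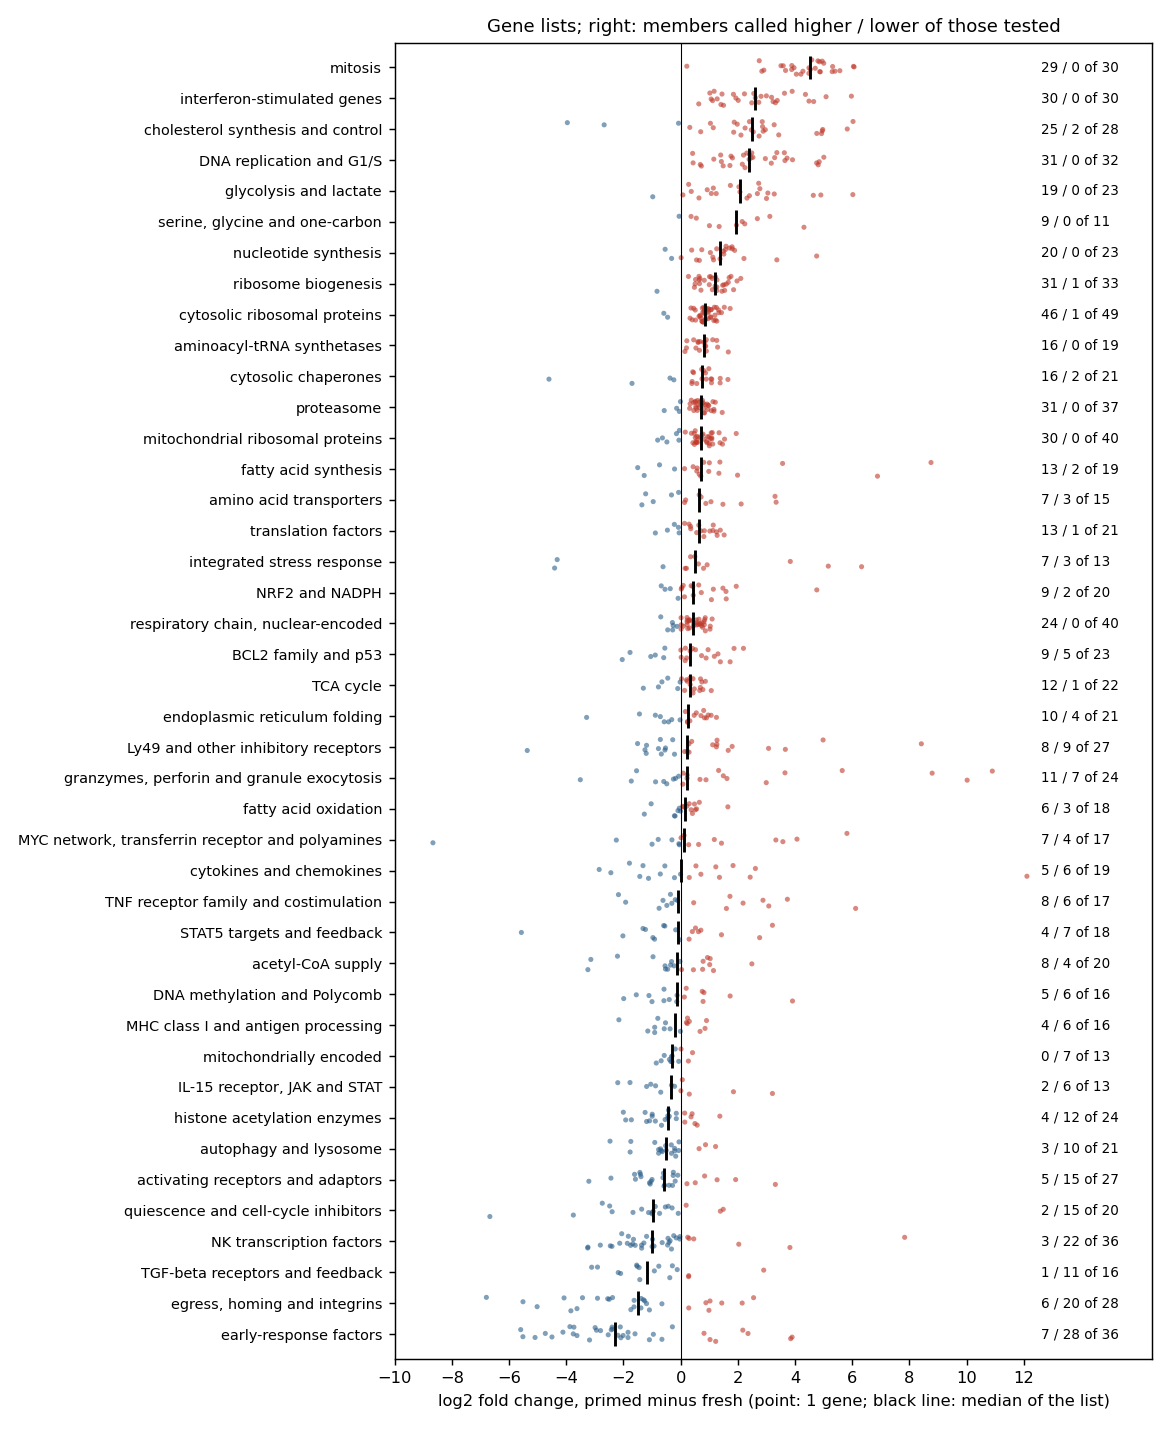
Each row is 1 of 42 gene lists, ordered by median; points are genes at their log2 fold change, primed minus fresh (genes with no counts in 1 group at their bound), the black line is the median, and the numbers at the right are members called higher and lower of those tested. The mitosis list lies furthest to the right, with 29 of 30 genes higher, and the early-response list furthest to the left, with 28 of 36 lower.

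The machinery of protein synthesis rose broadly and by small amounts. Of genes of ribosome biogenesis 31 of 33 were higher and 1 lower (median 1.21), with Npm1, nucleophosmin, at 1896, 2124 and 1754 CPM in primed libraries and 594, 587 and 601 CPM in fresh libraries (log2 fold change 1.70, SE 0.099, adjusted p = 2.21e-10) and the snoRNP genes Nop58 higher by 1.67 and Fbl by 1.22; the fall was Ubtf, a factor of RNA polymerase I, by 0.83. Of cytosolic ribosomal protein genes 46 of 49 were higher and 1 lower (median 0.86), and they held 7.77% ± 0.501 of the counts of primed libraries and 4.89% ± 0.193 of those of fresh libraries. Rps20 had 1221, 1308 and 952 CPM in primed libraries and 345, 328 and 375 CPM in fresh libraries (log2 fold change 1.73, SE 0.14, adjusted p = 1.28e-08). Rpl13 had 432, 442 and 3306 CPM in primed libraries and 2044, 2107 and 2132 CPM in fresh libraries, with libraries 1 and 2 below and library 3 above the fresh libraries, and did not pass (adjusted p = 0.495). These genes have many processed pseudogenes that may take their reads: of 1105 tested processed pseudogenes 406 were higher (36.7%) and 53 lower (4.8%), with a median of 0.83.

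Of mitochondrial ribosomal protein genes 30 of 40 were higher and 0 lower (median 0.71), of translation factor genes 13 of 21 were higher and 1 lower (median 0.63), and of aminoacyl-tRNA synthetase genes 16 of 19 were higher and 0 lower (median 0.80). Examples were Mrpl17 by 1.38, Eif4a1 by 1.52, Eef1g by 1.39 and Iars by 1.67. Protein turnover and folding rose beside them. Of proteasome genes 31 of 37 were higher and 0 lower (median 0.71), with Psma4 by 1.45, Psme2 by 1.13 and Psmb9 by 0.98, and of cytosolic chaperones and chaperonins 16 of 21 were higher and 2 lower (median 0.75), with Hspe1 and Hspd1, the mitochondrial chaperonin pair, up by 1.65 and 1.38. The heat-shock gene Dnajb1 fell by 1.70, and without fresh replicate 1 the falls of this list numbered 4. Without primed replicate 3 the falls numbered 3 among cytosolic ribosomal protein genes, 3 among mitochondrial ribosomal protein genes, 3 among translation factors, 2 among proteasome genes and 1 among aminoacyl-tRNA synthetases.

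Of genes of folding in the endoplasmic reticulum 10 of 21 were higher and 4 lower (median 0.24), and the falls numbered 7 without primed replicate 3. Xbp1, a factor of the unfolded protein response, rose by 1.25, and Ern1, the sensor that activates it, and Dnajb9 fell by 1.44 and 3.29. Of the integrated stress response 7 of 13 were higher and 3 lower (median 0.50). Asns, asparagine synthetase, had 27.2, 44.5 and 38.6 CPM in primed libraries and 0.426, 0.610 and 0.314 CPM in fresh libraries (log2 fold change 6.33, SE 0.33, adjusted p = 5.13e-11), Trib3 rose by 3.83 and Atf4 by 0.35, and Ppp1r15a, which ends the response, fell by 4.41. Of antioxidant and NADPH genes 9 of 20 were higher and 2 lower (median 0.43), with Txn1 by 1.95, Prdx1 by 1.59, Tkt by 1.595 and Nqo1 by 4.76, while Nfe2l2, which encodes NRF2, fell by 0.55. The falls numbered 1 without primed replicate 1 or fresh replicate 1, and the median was 0.809 with primed library 3 alone.

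All 30 tested genes of the interferon-stimulated list were higher (median 2.59), with none lower, and the same held in each fit that left out 1 wild-type library; with primed library 3 alone, 29 of 30 were. Isg15, a ubiquitin-like modifier, had 256, 179.9 and 174 CPM in primed libraries and 17.8, 12.2 and 19.2 CPM in fresh libraries (log2 fold change 3.63, SE 0.40, adjusted p = 6.89e-07). Usp18, which removes it and restrains interferon signalling, had 516, 406 and 477 CPM in primed libraries and 30.6, 24.6 and 38.5 CPM in fresh libraries (log2 fold change 3.90, SE 0.36, adjusted p = 7.68e-08). Ifit3, an antiviral RNA-binding family member, had 133, 64.2 and 70.3 CPM in primed libraries and 11.8, 10.2 and 11.5 CPM in fresh libraries (log2 fold change 3.00, SE 0.38, adjusted p = 4.36e-06). Primed library 1 was the highest of its group in Isg15, and no fresh library approached the primed ones. Rsad2 rose by 4.37, Oasl2 by 4.49, Ifi44 by 5.09 and Irf7 by 1.93, and the list held 0.459% ± 0.0678 of the counts of primed libraries and 0.115% ± 0.00936 of those of fresh libraries. Irf1, an interferon-gamma target kept in the list of transcription factors, fell by 0.65.

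The promoters of Isg15 and Ifit3 are shown because each holds 3 copies of the core of the interferon response element, GAAANNGAA, on either strand, in capitals; the motif was added after the rise of this list had been seen (RefSeq, GRCm38.p6; Isg15 chr4:156200769-156201068, minus strand; Ifit3 chr19:34583279-34583578, plus strand). The 3 copies of Isg15 overlap and run together:

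Isg15: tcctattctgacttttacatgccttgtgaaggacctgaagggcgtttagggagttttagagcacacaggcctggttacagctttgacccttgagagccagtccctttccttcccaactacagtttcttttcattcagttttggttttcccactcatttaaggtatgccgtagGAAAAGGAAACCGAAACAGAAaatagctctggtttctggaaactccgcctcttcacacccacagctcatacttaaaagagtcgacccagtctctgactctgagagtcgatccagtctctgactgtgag

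Ifit3: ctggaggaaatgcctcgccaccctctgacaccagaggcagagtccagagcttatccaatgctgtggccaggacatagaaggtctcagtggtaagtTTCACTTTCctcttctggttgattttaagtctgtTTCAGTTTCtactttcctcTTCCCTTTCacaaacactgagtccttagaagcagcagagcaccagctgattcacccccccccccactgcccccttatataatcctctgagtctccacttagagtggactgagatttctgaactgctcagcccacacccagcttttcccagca

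A match was found in 15 of 28 windows of the list (53.6%), which cover 23 of its 31 genes, and in 8.56% of all promoter windows.

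Interferons also raise the class I genes in many cells. Of 16 genes of class I and antigen processing 4 were higher (25%) and 6 lower (37.5%), against 26.5% and 27.2% of all genes. The median of this list was -0.19, and 0.0123 with primed library 3 alone. Tap1 and Tapbp, which load peptides, rose by 0.85 and 0.31. H2-K1 had 1873, 1516 and 1533 CPM in primed libraries and 2648, 2682 and 3229 CPM in fresh libraries (log2 fold change -0.80, SE 0.20, adjusted p = 0.00272). H2-D1 fell by 2.16, of which libraries 1 and 2 carried most, as given above, and primed library 3 was below the fresh libraries by less than 2-fold. B2m, the shared light chain, had 6057, 6039 and 4900.2 CPM in primed libraries and 5036, 4468 and 4876 CPM in fresh libraries and did not pass (0.24, adjusted p = 0.105). Class I genes share sequence, and their reads may be split between them.

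Genes of survival went both ways: in the BCL2 family and p53 list 9 of 23 were higher and 5 lower (median 0.33). Bcl2 had 413, 366 and 401 CPM in primed libraries and 282, 284 and 257 CPM in fresh libraries (log2 fold change 0.52, SE 0.0999, adjusted p = 0.000295), and Mcl1, on which NK cells depend, had 72.4, 65.2 and 61.6 CPM in primed libraries and 110.5, 98.8 and 91.0 CPM in fresh libraries (log2 fold change -0.59, SE 0.13, adjusted p = 0.00132). The pro-apoptotic genes Pmaip1 and Bbc3 fell by 2.04 and 1.77, while Trp53 rose by 1.31. Bcl2l11, which encodes BIM, did not pass (0.17, adjusted p = 0.213).

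Of TGF-beta receptor and feedback genes 1 of 16 were higher and 11 lower (median -1.17). Smad3, the signal transducer, had 36.0, 32.9 and 30.8 CPM in primed libraries and 145, 149 and 158 CPM in fresh libraries (log2 fold change -2.18, SE 0.11, adjusted p = 5.84e-11), Smad7, its inhibitor and target, fell by 2.10, and Pmepa1 rose by 2.90; the receptor genes Tgfbr1 and Tgfbr2 did not pass (-0.12 and -0.29, adjusted p = 0.597 and 0.0665). Of enzymes and readers of histone acetylation 4 of 24 were higher and 12 lower (median -0.44). The rises numbered 2 with primed library 3 alone or with no scaling factor. Hat1, which acetylates newly made histones, rose by 1.37, and the coactivator genes Ep300, Crebbp and Kat6b fell by 1.24, 1.19 and 2.00. Of DNA methylation and Polycomb genes 5 of 16 were higher (31.2%) and 6 lower (37.5%), against 26.5% and 27.2% of all genes. The median of this list was -0.13, and 0.0108 with primed library 3 alone. The S-phase members Uhrf1, Ezh2 and Dnmt1 rose by 3.91, 1.73 and 0.82, and the demethylase gene Kdm6b fell by 1.99. Of autophagy and lysosome genes 3 of 21 were higher and 10 lower (median -0.51), with Sqstm1, the cargo receptor p62, down by 1.74, and Tfeb, which drives the lysosomal genes, by 1.77.

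Other promoter motifs searched on both strands gave the following shares. The E-box CACGTG, bound by MYC and its partners, was in 26.3% of windows of the MYC list and 21.6% of those of ribosome biogenesis, against 7.15% of all windows. The ATF4 element TGATGNAAT was in 5.56% of windows of the integrated stress response and in 0 of 13 windows of the serine list, against 0.965% of all windows. The windows cover 15 of 18 genes of the MYC list and 29 of 33 of ribosome biogenesis. They cover 15 of 15 genes of the integrated stress response and 12 of 13 of the serine list. A match describes these letters in a 300-base window and is not a measured binding site.

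**Figure D4:**
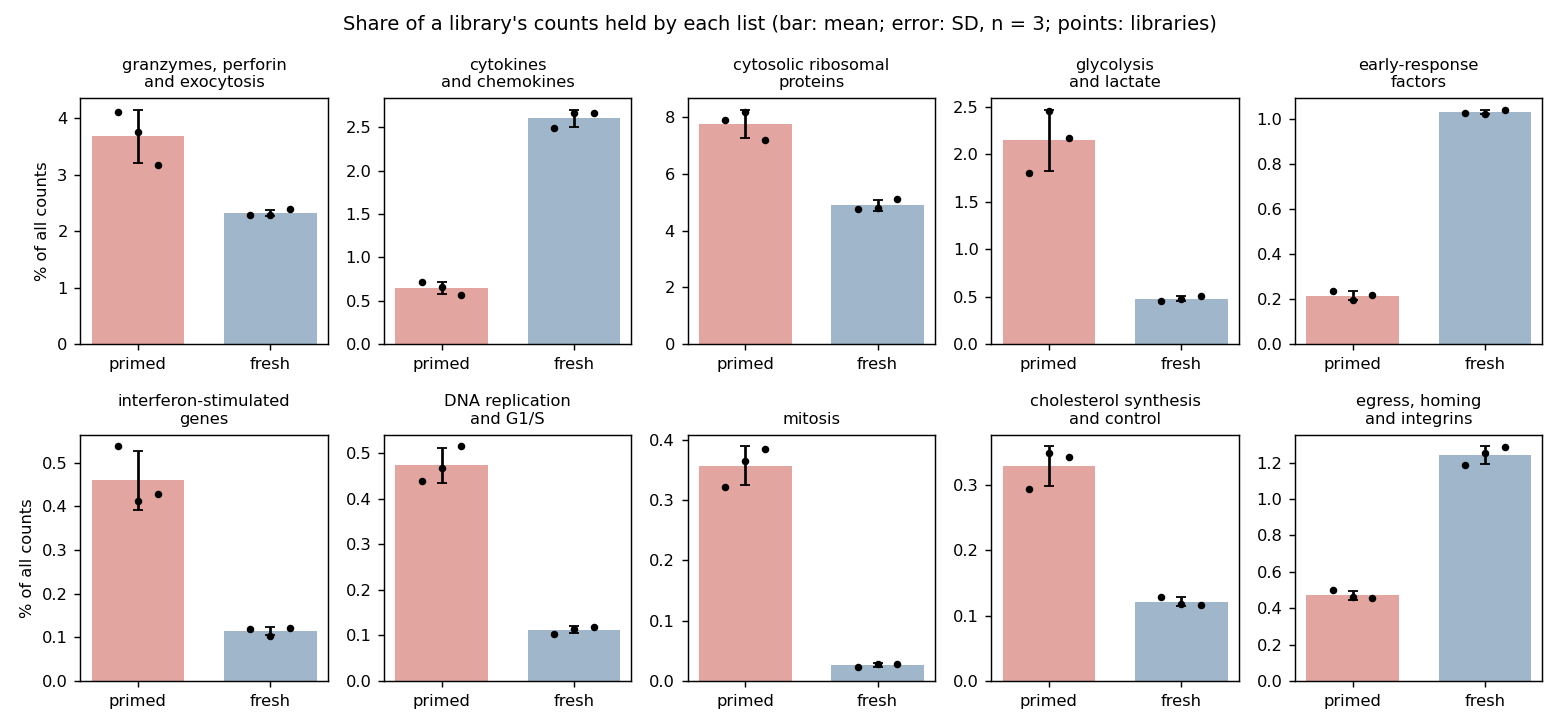
Bars give the mean share of a library's counts held by 10 gene lists in primed cells (red, left) and fresh cells (blue, right), with the standard deviation of 3 libraries and the libraries as points; axes start at 0 and differ between panels. Ribosomal proteins are at 7.77% in primed cells and 4.89% in fresh cells, and cytokines and chemokines at 0.647% and 2.61%.

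Classes of transcript differed in direction. Of 11720 protein-coding genes 28.5% were higher and 29.3% lower. Of 583 entries annotated TEC (loci whose transcripts are provisional) 14 were higher and 221 lower (37.9%), with a median of -1.22, and of 68 sense-intronic entries 0 were higher and 30 lower, with a median of -1.42. Of 485 antisense entries 42 were higher and 102 lower. Such entries overlap other genes, and no source used here gives the strand setting of the counting, so their reads cannot be told apart from those of their host genes.

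To see what of this response depends on genotype, the wild-type response was set against that of Acly knock-out cells, which share no library with it. Acly, the deleted gene, had 41.4, 38.1 and 48.9 CPM in primed knock-out libraries and 16.01, 15.3 and 25.5 CPM in fresh knock-out libraries, below every wild-type library given above. The difference of the 2 responses passed the test for 1559 of 14864 genes (10.5%), 953 with the higher value in wild type (6.41%) and 606 with the lower (4.08%). Of 7987 genes called in wild type 5163 (64.6%) were called in the same direction in knock-out, which is 71.3% of the 7238 called there, and 130 were called in the opposite direction. With the replicate number as a block it passed for 972. The count of differences rests on single libraries: it was 940 without primed wild-type replicate 1, 842 without replicate 2, 2453 without replicate 3, 911 without fresh wild-type replicate 2, 1003 and 870 without fresh knock-out replicates 1 and 3, and 257 with primed library 3 as the only primed wild-type library.

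In glycolysis the wild-type rise was the larger: 19 of 23 genes had a difference called, all in that direction, and 16 with primed library 3 alone. The log2 fold change of Slc16a3 was 4.90 in wild type and 1.63 in knock-out, a difference of 3.27 (SE 0.38, adjusted p = 0.000105), and that of Pgk1 was 3.27 in wild type and 1.196 in knock-out, a difference of 2.08 (SE 0.20, adjusted p = 1.33e-05). Hk2 and Ldha differed by 1.31 (SE 0.36, adjusted p = 0.0264) and 1.46 (SE 0.24, adjusted p = 0.00116). Mif, a cytokine gene, and Bnip3, a mitophagy receptor gene, differed by 2.26 (SE 0.29, adjusted p = 0.000233) and 2.32 (SE 0.34, adjusted p = 0.000549). Among effector genes Gzmc rose more in wild type, by 2.68 (SE 0.48, adjusted p = 0.00236), and for Gzmb the difference of 0.51 (SE 0.30, adjusted p = 0.299) did not pass. Of 49 cytosolic ribosomal protein genes 41 had a difference called, all with the higher value in wild type. They numbered 16 to 44 when 1 library was left out (16 without primed wild-type replicate 2 or fresh knock-out replicate 3), 24 with the replicate block and 1 with primed library 3 alone, and without primed wild-type replicate 3 another 2 had the lower value. Of 40 nuclear respiratory chain genes 17 had a difference called, all with the higher value in wild type. They numbered 7 to 19 when 1 library was left out (7 without primed wild-type replicate 2), 9 with the replicate block and 1 with primed library 3 alone, and without primed wild-type replicate 3 another 5 had the lower value.

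Single genes of quiescence and trafficking fell further in wild type, and most members of those lists had no difference called. Of 20 quiescence genes 3 had a lower value in wild type and 1 a higher one, where the lower ones numbered 1 to 3 when 1 library was left out (1 without primed wild-type replicate 1 or 2, primed knock-out replicate 2 or fresh knock-out replicate 1 or 2) and 1 with primed library 3 alone. Of 28 genes of egress, homing and integrins 6 had a lower value in wild type and 2 a higher one; with primed library 3 alone 3 were lower and 1 higher, and the higher ones numbered 1 to 2 when 1 library was left out (1 without any one of primed wild-type replicates 1 and 2, fresh wild-type replicates 2 and 3, primed knock-out replicates 1 and 2 and fresh knock-out replicates 1 and 2). Klf2 changed by -6.67 in wild type and -3.42 in knock-out, a difference of -3.25 (SE 0.24, adjusted p = 2.73e-06), and S1pr1 by -6.79 in wild type and -2.70 in knock-out, a difference of -4.09 (SE 0.57, adjusted p = 0.000402). The protease gene Cma1 differed by -3.68 (SE 0.30, adjusted p = 3.79e-06). Of 28 cholesterol genes 3 had the higher value in wild type and 10 the lower; these numbered 1 and 2 with primed library 3 alone, and 1 and 7 without fresh knock-out replicate 3. Among the 10 was Insig1, whose response was 1.98 in wild type and 4.01 in knock-out, a difference of -2.03 (SE 0.39, adjusted p = 0.00412). Acly itself had responses of 0.034 in wild type and 1.17 in knock-out, a difference of -1.14 (SE 0.27, adjusted p = 0.0131). Of 30 interferon-stimulated genes 1 had a difference called, and 0 to 6 had when 1 library was left out (6 without primed knock-out replicate 3, 3 without primed wild-type replicate 3, 0 without any other). Of 30 mitotic genes 1 had a difference called, and 0 to 6 had when 1 library was left out (6 without fresh knock-out replicate 1, 4 without primed wild-type replicate 3). The medians of the interferon-stimulated and mitotic lists were 2.59 and 4.51 in wild type and 2.16 and 4.89 in knock-out.

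**Figure D5:**
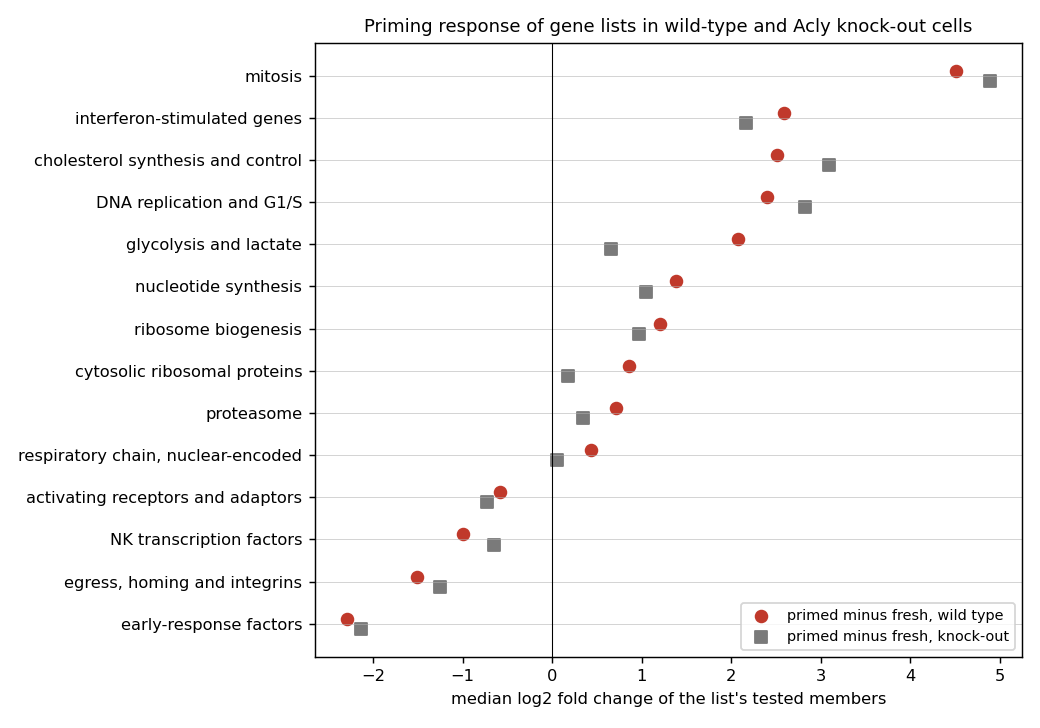
Median log2 fold change, primed minus fresh, over the tested members of 14 gene lists, in wild type (red circles) and Acly knock-out (grey squares). The 2 medians lie apart for glycolysis (2.07 in wild type and 0.66 in knock-out) and close together for the early-response list (-2.29 and -2.13).

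After the 6 hours on plate-bound NKG2D, several of the programmes described above stood at other levels; this comparison shares the primed libraries with the one above, and the cells had been washed before it. Relative to primed cells, 1367 of 14864 genes were higher (9.2%) and 1587 lower (10.7%), 19.9% in either direction. Of 30 interferon-stimulated genes 2 were higher and 23 lower, of 28 cholesterol genes 1 were higher and 21 lower, of 23 glycolysis genes 1 were higher and 17 lower and of 18 STAT5 targets 1 were higher and 14 lower. With primed library 3 alone, 14 of the interferon-stimulated genes were lower. Cish had 53.4, 14.8 and 14.3 CPM in NKG2D-stimulated libraries, beside 93.6, 93.7 and 76.0 CPM in primed ones. Gzmb had 6022, 3889.9 and 3306 CPM in NKG2D-stimulated libraries, beside 17635, 16376 and 12892 CPM in primed ones. Klf2 had 0.828, 0.525 and 1.08 CPM in NKG2D-stimulated libraries, beside 2.97, 2.67 and 2.43 CPM in primed ones, against 252, 266 and 301 CPM in fresh ones.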

How the data were processed

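RNA of sorted mouse splenic NK cells was extracted with an RNeasy kit and made into libraries with Takara-Clontech SMARTer reagents, per the labels' protocols. The deposited table holds expected counts per gene as the authors made them; bcl2fastq, DRAGEN, edgeR and mm10 are named in the submitters' processing notes, without versions or settings. Of the deposited values above 0, 30% are not whole, so these estimated counts were rounded first; raw whole counts had been assumed when the test was chosen. Of 55774 entries, 168 identifiers were listed more than once and were used once, which left 55487.

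Genes were filtered with filterByExpr, scaled by TMM and tested with edgeR 4.0.16 (R 4.3.3) in a quasi-likelihood fit with 6 group means over all 18 libraries (12 residual degrees of freedom), with Benjamini-Hochberg adjustment over 14864 genes at 0.05; every adjusted p in the text comes from this fit unless another is named. The same fit gave the wild-type minus knock-out difference. The standard error of a log2 fold change is its size over the square root of F. CPM use the TMM-scaled library total. Levels per length use exon length from GENCODE M21 (GRCm38, the same assembly as mm10). Promoters are RefSeq windows of GRCm38.p6. The fit was tested on simulated data. Alternatives were DESeq2 1.42.0, limma 3.58.1, other scaling and filters, a replicate block, and each library left out.

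The comparison and the gene lists were chosen with earlier results of these data known. Genes named are the 15 largest rises and falls at a mean log2 CPM of at least 4 with groups that do not overlap, those of smallest p in each list (2 risen and 2 fallen), and a set of known NK genes; other members named were chosen after their values were seen. Of the list members, Gp49a, Cd244, Mars and Atp5f1 were not matched by symbol. Some members of the lists are not reported here by name and stay in the counts.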

Additional observations from a re-analysis of the deposited data

Results flagged for a closer look

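The priming response differed between wild type and Acly knock-out, by a test of the difference itself, at 1559 genes. Of 61 named genes compared, 22 had a difference called; these genes include the largest changes of the wild-type response and were chosen for them, so their directions are a description. All values here are log2 differences, the wild-type response minus the knock-out response.

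Among effector, activation and glycolysis genes the value was higher in wild type for Gzmc (2.68), Ifitm2 (2.22), Cd69 (1.80), Plac8 (1.79), Ldha (1.46), Hk2 (1.31), Prf1 (1.14) and Tnfaip3 (0.93). Among lipid and acetyl-CoA genes it was lower in wild type for Acly (-1.14), Fasn (-1.26) and Sqle (-1.32).

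Of 36 early-response genes 4 had the higher value in wild type, among them Cd69 and Tnfaip3, and 3 the lower, among them Fos (-1.43). Of all tested genes 6.41% had the higher value and 4.08% the lower. How the counts of this list change when 1 library is left out was not examined. Among genes of quiescence and trafficking the value was lower in wild type for S1pr5 (-2.55), Cx3cr1 (-2.83), Klf2 (-3.25) and S1pr1 (-4.09). The same held for Klrk1 (-0.49), Frat1 (-1.14), Dhrs3 (-1.42), Tspan32 (-1.65), H1f2 (-1.79) and Cma1 (-3.68). Groups of 3 libraries are too small for a test of single outlying libraries.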

How the results depend on the processing

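The count of genes changed by priming, 7987, was 8359 by DESeq2, 9698 by limma voom, 7991 with RLE factors, 7901 with no filter on low counts, 7682 with a filter at 1 CPM, 7970 with the 6 libraries alone and 6951 to 7832 when 1 library was left out. It was 2337 when tested against a 2-fold change and, among alternatives chosen after seeing the data, 8179 with no scaling factor (3417 higher and 4762 lower) and 5257 with primed library 3 alone, where 63.0% of the calls were kept; fewer samples enter that last fit.

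The count of genes whose response differed between genotypes, 1559, was 4157 by limma voom, 46 against a 2-fold change, 842 to 2453 when 1 library was left out and 257 with primed library 3 alone; the cause was not tested. Shared replicate numbers were not taken to pair the libraries. Deviations of same-numbered primed and fresh libraries correlated at 0.139, -0.030 and -0.137 across 6226 genes, and not every library correlated best with its own number, although sex followed the number in both wild-type groups (replicate 1 female, 2 and 3 male). At some genes library 1 was also the highest of both wild-type groups. Tmem176b had 43.4, 14.7 and 9.74 CPM in primed libraries and 42.5, 8.68 and 11.2 CPM in fresh libraries. For mt-Nd3 these were 123.3, 12.4 and 7.07 CPM and 97.2, 10.6 and 9.69 CPM. Adam8 was highest in fresh library 1 and not in primed library 1. Whether libraries of 1 number share mice was not tested. With a replicate block the counts of called genes were 7504 for priming and 972 for the genotype difference.

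Log2 fold changes that did not pass the test changed sign for Prf1 (-0.063 with no scaling, -0.069 with primed library 3 alone), Il2rb (-0.081 with no scaling) and Acly (-0.021 by limma voom, -0.020 without primed replicate 2, -0.016 without fresh replicate 1, -0.11 with no scaling, and up to 0.14 when another library was left out). By limma voom Gzma (0.31, adjusted p = 0.0304) and Tnf (1.11, adjusted p = 0.0237) passed. DESeq2 and RLE factors left all 209 named values on their side of the threshold. With primed library 3 alone the list medians changed sign for STAT5 targets (0.0948), class I genes (0.0123), acetyl-CoA supply (0.0961), DNA methylation (0.0108), cytokines (0.248) and inhibitory receptors (-0.14), and were 0.74 for folding in the endoplasmic reticulum, 0.755 for the integrated stress response, 0.131 for granzymes, 0.0926 for fatty acid oxidation, -0.211 for the TNF receptor family and -0.469 for the mitochondrial genome. The median of the MYC list was -0.00271 by limma voom, that of DNA methylation 0.0175 without fresh replicate 1, that of inhibitory receptors 0 without primed replicate 2, and that of cytokines -0.143 with no scaling and up to 0.35 without fresh replicate 1. Depth limits genes near 0 counts, for which levels or bounds are given.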

Other observations

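The genes of highest level were shared in part between the groups. Of the 20 tested genes of any class with the highest mean CPM in primed cells, 10 were also among the 20 highest in fresh cells. Of the 100 highest, 68 were shared. CPM do not correct for the length of a gene.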
